A study of Mus musculus with 3 samples.

Results

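DNA replication and S phase genes were read on 3 mouse microarrays as a set of 45 named genes, taken by gene symbol from the 31131 gene names of the array design. They cover the replicative helicase and its loaders (15 genes), the sliding clamp and its loader (6), the polymerases and primase (8), single-strand binding and joining of Okazaki fragments (4), nucleotide supply and uracil removal (6), chromatin assembly and histone mRNA (3) and entry into S phase (3). All 45 were found, and 44 were well above background on every array. The exception was Ccne2 (cyclin E2), which was not well above background on any.

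The cells were bone marrow derived mast cells from male C57BL/6 mice, 12 weeks old per the labels, that lack Pafah2. Pafah2 encodes a phospholipase that releases oxidised fatty acids from membrane lipids. One culture condition received a mixture of the ω3 epoxides 17,18-EpETE and 19,20-EpDPE in a ratio of 2 to 3 at 300 nM, another received the PPAR gamma antagonist GW9662 at 0.5 µM, and the last received DMSO, the vehicle, each for 12 h. All of them carry the Pafah2 deficiency, so no comparison here bears on the gene itself, and the labels do not say whether the conditions came from separate mice or cultures.

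There was 1 array per condition, so no test was possible and no error between cultures is known. The only error at hand is the spread among copies of the same probe, which gives an SD of a log2 ratio of 0.0821 between epoxides and vehicle, 0.0818 between GW9662 and vehicle and 0.0786 between epoxides and GW9662 (219 probes with at least 5 copies). Of 43020 spots per array, 54.6% were well above background on the epoxide array, 53.3% on the GW9662 array and 52.3% on the vehicle array. The labels of the treated arrays are not settled, because in the authors' deposited table of values the epoxide column repeats the GW9662 scan and the GW9662 column the epoxide scan. Treated arrays are named here by the scan attached to each sample, and under the deposited table every epoxide and GW9662 value below changes places. All 11 mast cell markers, Kit and Fcer1a among them, were well above background on the 3 arrays.

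Replication is prepared in G1 phase, when the origin recognition complex with Cdc6 and Cdt1 loads the Mcm2 to Mcm7 helicase on DNA, and it starts in S phase, when Cdc45 and the GINS complex join the helicase and the polymerases follow. Many of these genes are targets of the E2F transcription factors, which cyclin E and its kinase release from the retinoblastoma protein. Mast cells in bone marrow culture go on dividing, so their replication genes are read in a mixture of cells at all stages. In such bulk RNA, fewer cells in S phase and less RNA per cell cannot be told apart.

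The promoters are shown first because their letters were not used to choose the genes. The choice was still not independent of the motif, since many of these genes are known E2F targets, as stated above. The promoters of all genes set beside them were not matched for base content. An E2F motif (TTTCCCGC, TTTGGCGC, TTTCGCGC or TTTGCCGC, searched on both strands, where overlapping matches each count) stood in 12 of the 42 promoters of these genes in RefSeq (28.6%), which belong to 37 of the 45 genes, against 744 of 32851 promoters of all genes (2.26%). Each window ran from 250 bases before the gene start to 50 after it. The genes were Mcm3, Mcm5, Mcm6, Mcm7, Gins3, Cdc6, Cdt1, Rfc3, Pola1, Pold1, Pole2 and Lig1. CCAAT stood in 22 of the 42 (52.4%), against 37.4% of all promoters. The stretches below, all upstream of the start, are written 5′ to 3′ on the strand of the gene in GRCm38.p6, with the E2F motif in capitals. In Mcm6 and Mcm5 a match on each strand overlaps within the 12 capital letters of 1 run.
Mcm6, chr1:128359706-128359865 (minus strand): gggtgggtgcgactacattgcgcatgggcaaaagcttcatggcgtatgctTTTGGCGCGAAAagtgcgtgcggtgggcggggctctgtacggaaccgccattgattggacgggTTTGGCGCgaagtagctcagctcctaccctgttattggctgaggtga
Mcm5, chr8:75109319-75109418 (plus strand): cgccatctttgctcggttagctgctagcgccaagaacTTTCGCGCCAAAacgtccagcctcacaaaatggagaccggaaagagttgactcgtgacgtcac
Cdc6, chr11:98907981-98908060 (plus strand): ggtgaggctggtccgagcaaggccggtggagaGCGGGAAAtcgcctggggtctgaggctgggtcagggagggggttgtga
Pola1, chrX:93632246-93632325 (minus strand): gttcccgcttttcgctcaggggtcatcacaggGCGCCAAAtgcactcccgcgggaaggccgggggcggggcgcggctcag
Gins3, chr8:95633479-95633558 (plus strand): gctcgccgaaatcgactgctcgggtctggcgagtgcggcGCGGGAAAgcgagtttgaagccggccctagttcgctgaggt
Rfc3, chr5:151651209-151651288 (minus strand): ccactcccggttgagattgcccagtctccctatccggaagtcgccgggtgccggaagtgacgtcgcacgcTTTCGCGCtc

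The base content of a probe moved with its ratio on the epoxide array, so the probes themselves are shown for 4 genes. Their ratios for epoxides over vehicle lie toward the ends of the range, though the lowest, that of Rfc2, is not among them. Probes are 60 bases long, and 30 bases of each are printed. In Ung the capitals mark a run of GT repeats (bases 31 to 60, mm9 chr5:114588731-114588790 for the whole probe). In Dut, Chaf1b and Pold1 they mark G and C (bases 1 to 30). The whole Dut probe lies at mm9 chr2:125083359-125083418 and that of Chaf1b at chr16:93906219-93906278, while the Pold1 probe has no mapped position in the files. No gene annotation of mm9 was used here to say which part of a transcript they cover.
Ung: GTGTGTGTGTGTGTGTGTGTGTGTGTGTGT
Dut: tttGttGttGttGtattatttaaattataG
Chaf1b: atGCCCaaaaCCtGGCCCCtGatGaCtCtt
Pold1: aCGtCatCtGtaCCaGCCGtGaCtGtCCCa

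Levels below are log2 of the processed signal of a gene's brightest probe minus log2 of the 75th percentile of its array, so 0 is that percentile. Levels are set side by side only between arrays, since probes differ in how well they bind. Ratios are differences of these levels, and a ratio of 0.263 is 1.2-fold. The plot of levels by gene shows the 3 arrays close together for almost every member.

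**Figure D1:**
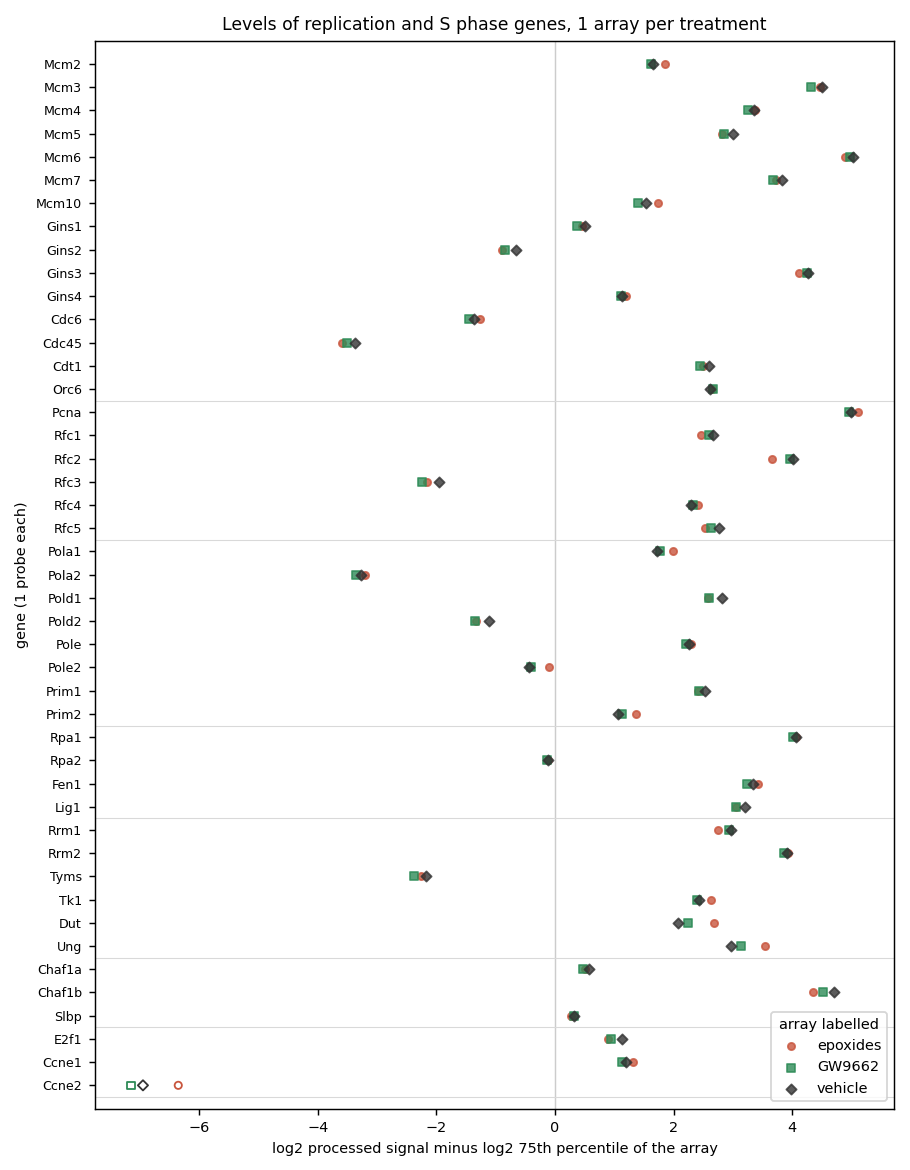
Level of each of the 45 genes (y axis, grouped by role) on the array labelled epoxides (circles), GW9662 (squares) and vehicle (diamonds), as log2 processed signal minus log2 of the 75th percentile of the array (x axis); 1 array per treatment, no error bars. Open marks (Ccne2) were not well above background. The marks of most genes lie on top of each other, and among the filled marks those of Dut and Ung are farthest apart, with epoxides to the right.

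Between epoxides and vehicle, the replication genes stayed close to level. Of the 44 measured members, 25 (56.8%) had a ratio below 0, against 61.1% of all 15818 measured genes, and their median ratio of -0.04 (quartiles -0.20 and 0.10), against -0.07 for all genes, was above 0 with quantile normalization (0.024, beside 0.008 for all genes) and with cyclic loess (0.0026, beside -0.003). Rfc2 and Chaf1b (2 members, 4.55%) were at least 1.2-fold lower, where 25.6% of all genes were. The 4 members at least 1.2-fold higher (9.09%, against 7.74% of all genes) were Dut, Ung, Pole2 and Prim2. Dim genes swell these shares of all genes. Among the brighter genes (from the median signal upwards), which hold 35 of the members, 17.0% of all genes were lower and 5.22% higher. None was 2-fold lower or higher, as were 2.07% and 0.215% of all genes. With quantile normalization the split was 7 higher and 1 lower, where 14.0% of all genes were higher and 16.1% lower.

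Dut and Ung had the 2 highest ratios. Both enzymes keep uracil out of DNA, Dut by breaking down dUTP and Ung by cutting uracil out of the strand. Dut stood at 2.68 with epoxides, 2.24 with GW9662 and 2.07 with vehicle, a ratio of 0.61 for epoxides over vehicle (1.52-fold). Ung stood at 3.55 with epoxides, 3.13 with GW9662 and 2.97 with vehicle, a ratio of 0.57 (1.49-fold). Both genes were highest on the epoxide array and lowest on the vehicle array. Their probes are unusual in letters, as printed above. That of Dut holds 23.3% G and C, and 167 measured genes with probes under 30% G and C had a median ratio of 0.39. With a trend in GC content and signal removed from each array, Dut came to 0.14 and Ung to 0.60. A dimmer probe of Dut, with 35% G and C, had a ratio of 0.28. The Ung probe carries 34 bases of GT repeat, and the 30 detected probes of the array with at least 30 such bases had a median ratio of 0.47 (quartiles 0.37 and 0.52) for epoxides over vehicle and of 0.03 (upper quartile 0.07) for GW9662 over vehicle. Ung lies above the upper quartile of these probes in both comparisons with vehicle, with 0.57 for epoxides over vehicle and 0.16 for GW9662 over vehicle. For epoxides over GW9662 these probes had a median of 0.42 (quartiles 0.37 and 0.46), and Ung, at 0.41, lay just below that median. What part of either ratio belongs to the transcript was not tested.

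The other enzymes of nucleotide supply were mixed. Tk1, thymidine kinase, stood at 2.64 with epoxides, 2.39 with GW9662 and 2.43 with vehicle (ratio of 0.21 for epoxides over vehicle). Rrm1, the large subunit of ribonucleotide reductase, stood at 2.74, 2.94 and 2.96 in the same order of arrays (ratio of -0.22). Its partner Rrm2 (0.02) and the thymidylate synthase Tyms (-0.07) differed from vehicle by less than the SD among copies of a probe. The group's median was 0.11, with 2 of 6 below 0, against 61.1% of all genes.

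Among polymerases and primase, the accessory or catalytic subunits Pole2, Prim2 and Pola1 were higher with epoxides and those of polymerase delta lower. Pole2, a subunit of polymerase epsilon, stood at -0.09 with epoxides, -0.41 with GW9662 and -0.44 with vehicle (ratio of 0.34 for epoxides over vehicle). Prim2, the large primase subunit, stood at 1.37, 1.13 and 1.06 (0.31), and Pola1, the catalytic subunit of polymerase alpha, at 1.98, 1.78 and 1.73 (0.26, which is just under 1.2-fold). In each of the 3, epoxides lay above the other arrays, which were close to each other. All 3 were read by probes with 35% G and C, and without the trend their ratios were 0.20, 0.16 and 0.12. The polymerase delta subunits Pold1 (ratio of -0.25) and Pold2 (-0.21) lay below vehicle, and the primase subunit Prim1 (-0.12) less so. Without the trend Pold1, read by a probe with 55% G and C, came to 0.01. Over the 8 genes 3 were below 0, against 61.1% of all genes, with a median of 0.05.

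Of the clamp and its loader, 4 of 6 genes were below 0, near the share of all genes (61.1%), and the clamp itself was above 0. Rfc2, a subunit of the loader that opens the clamp, stood at 3.66 with epoxides, 3.96 with GW9662 and 4.02 with vehicle (ratio of -0.36 for epoxides over vehicle), the lowest ratio of all members. Rfc1, Rfc3 and Rfc5 had ratios of -0.20, -0.21 and -0.23, while Rfc4 had 0.11. Pcna, the clamp, stood at 5.11 with epoxides, 4.96 with GW9662 and 4.996 with vehicle (0.12). The Pcna ratio was 0.30 with quantile normalization and 0.13 without the trend, and its probe maps to another chromosome than the gene. The median of the 6 was -0.20, and it was -0.10 without the trend and -0.06 without a middle band of 220 of the 532 rows of the array that was left out as an alternative and holds Rfc1 and Rfc3. With both changes it was 0.02. Without the trend Rfc2 came to -0.08.

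The helicase genes spread evenly about vehicle on the epoxide array. Of the 15, 9 were below 0, near the 61.1% of all genes, with a median of -0.05 that was 0.003 with cyclic loess. The lowest were Cdc45 (-0.23) and Gins2 (-0.22), which activate the helicase, and Mcm5 (-0.20), a helicase subunit. The highest were Mcm2 (0.20), another subunit, and Mcm10 (0.20), which helps start the forks. None of them reached 1.2-fold. Without the trend Cdc45 came to 0.02, Gins2 to 0.05, Mcm5 to -0.08, Mcm2 to 0.06 and Mcm10 to 0.06, so the direction of Cdc45 and Gins2 was lost, and Cdc45 was at -0.01 with quantile normalization.

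Chaf1b, a subunit of the factor that places new histones behind the fork, stood at 4.36 with epoxides, 4.53 with GW9662 and 4.70 with vehicle (ratio of -0.34 for epoxides over vehicle). The array with vehicle was highest and that with epoxides lowest. Another probe of Chaf1b gave -0.40, and both hold 55% G and C. Quantile normalization brought the ratio to -0.23, cyclic loess to -0.22 and removal of the trend to -0.04. Its partner Chaf1a (-0.06) and the histone mRNA binding protein Slbp (-0.05) were within the SD among copies. In single-strand binding and Okazaki fragment joining, Rpa1 and Rpa2 (-0.01 each), the flap nuclease Fen1 (0.08) and the ligase Lig1 (-0.14) had a median of -0.01, which was above 0 with quantile normalization (0.03), cyclic loess (0.05) and scaling on detected probes (0.02). Of the genes for entry into S phase, the transcription factor E2f1 had a ratio of -0.24 (-0.02 without the trend) and the cyclin Ccne1 one of 0.12 (0.02 without the trend, and -0.02 as the mean of its detected probes).

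**Figure D2:**
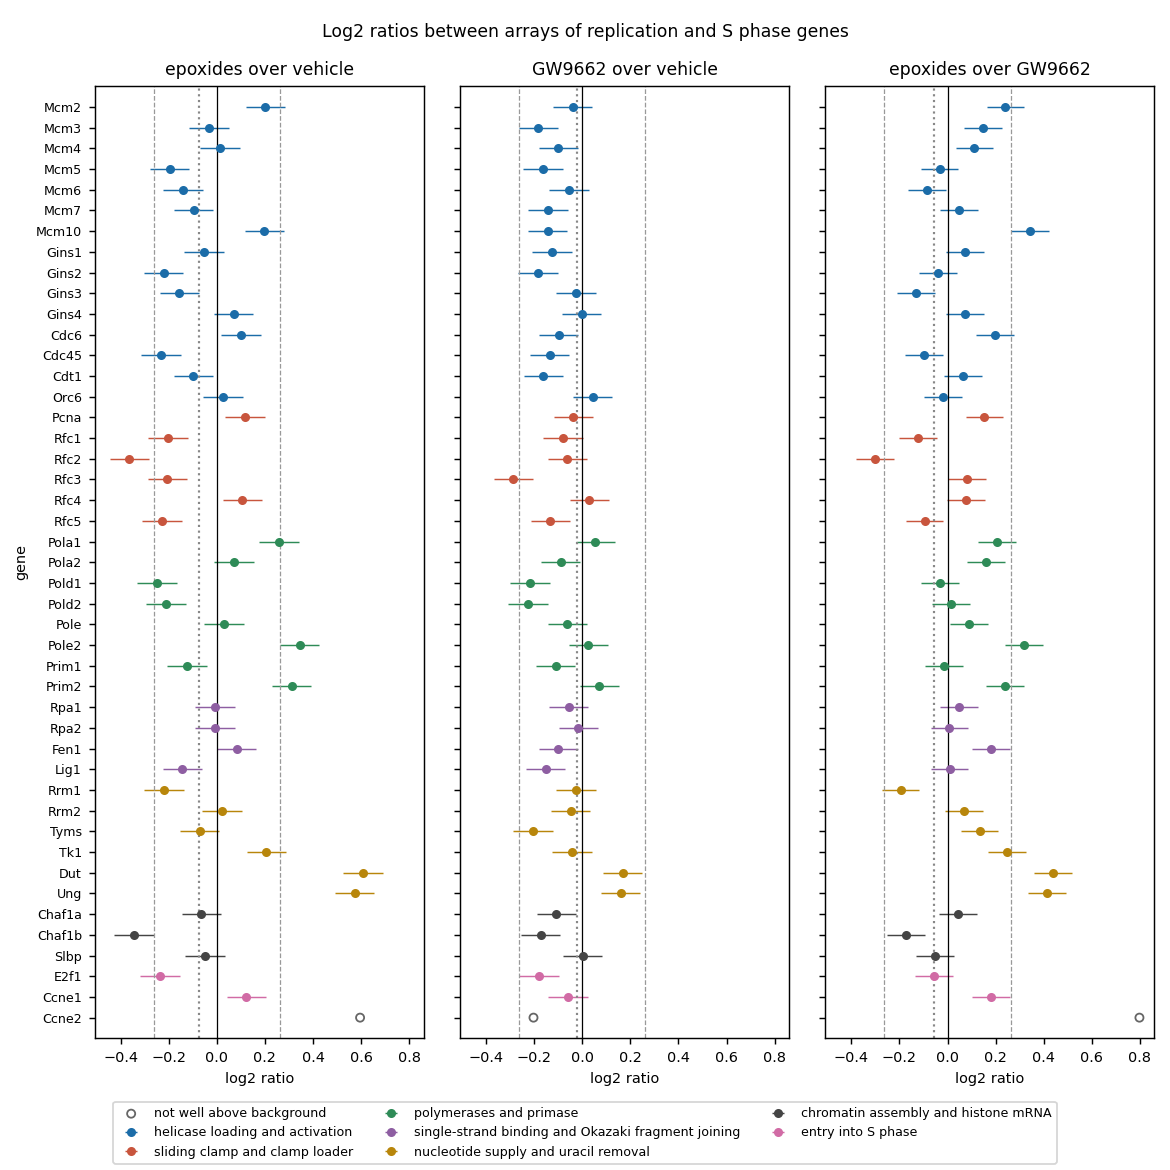
Log2 ratio (x axes) of each gene (y axis, coloured by role) in 3 panels, epoxides over vehicle on the left, GW9662 over vehicle in the middle and epoxides over GW9662 on the right; bars are the SD among copies of a probe (spot error only), dashed lines mark 1.2-fold and the dotted line is the median of all measured genes. In the middle panel 36 of 44 genes lie left of 0, all but Rfc3 inside the dashed lines. Open circles (Ccne2) were not well above background.

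Between GW9662 and vehicle, most replication genes lay slightly below vehicle. Of the 44 measured members, 36 (81.8%) had a ratio below 0, against 57.8% of all 15794 measured genes, and the median was -0.08 (quartiles -0.15 and -0.03), against -0.02 for all genes. The SD among copies of a probe (0.0818) describes the ratio of a single probe and does not measure the spread of this median. Error between arrays or cultures, which could move many genes together, is not known. Rfc3 was the only member at least 1.2-fold lower (2.27%, against 6.2% of all genes), at -2.25 with GW9662, -2.17 with epoxides and -1.96 with vehicle (ratio of -0.29 for GW9662 over vehicle). None was at least 1.2-fold higher, as were 2.88% of all genes, and none was 2-fold lower or higher, as were 0.469% and 0.355%. Among the brighter genes (from the median signal upwards), which leave out Rfc3, 0.962% of all genes were at least 1.2-fold lower and 0.418% higher. Under every alternative that used the same scan the median stayed below 0, between -0.09 and -0.06. Without the trend in GC content and signal 36 members were also below 0, against 51.2% of all genes. With the deposited table, which holds the other treated scan in this column, the median was -0.04 and the count was 25 of 44, against 61.2% of all genes.

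In the helicase group 14 of 15 genes were below 0, against 57.8% of all genes, with a median of -0.12. Mcm3 stood at 4.33 with GW9662, 4.48 with epoxides and 4.51 with vehicle (ratio of -0.18 for GW9662 over vehicle). Gins2 stood at -0.85, -0.89 and -0.67 in the same order (-0.18), and the licensing factor Cdt1 at 2.44, 2.504 and 2.60 (-0.16). Vehicle was highest for each of these 3 genes. Mcm5 (-0.16), Mcm7 (-0.14), Mcm10 (-0.14), Cdc45 (-0.14), Gins1 (-0.12), Mcm4 (-0.10) and Cdc6 (-0.10) followed. Mcm2 (-0.04), Mcm6 (-0.05) and Gins3 (-0.03) differed by less than the SD among copies, as did Gins4, at 1.12 with GW9662 and 1.12 with vehicle. Orc6, a subunit of the origin recognition complex, was the exception at 0.04.

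Entry into S phase (2 genes) had a median of -0.12 and chromatin assembly and histone mRNA (3 genes) one of -0.11, close to that of the helicase. The polymerases and primase had a median of -0.08, with 5 of 8 below 0, near the 57.8% of all genes. They were lowest in the polymerase delta subunits Pold2 (-0.23) and Pold1 (-0.22). The clamp and its loader had a median of -0.07, with 5 of 6 below 0 and Pcna at -0.04. Single-strand binding and Okazaki fragment joining had 4 of 4 below 0 with a median of -0.08, and Lig1 was lowest at -0.15. In nucleotide supply the median was -0.03, with Tyms at -2.39 with GW9662, -2.25 with epoxides and -2.18 with vehicle (-0.20) and with Dut (0.17) and Ung (0.16) above vehicle. E2f1 stood at 0.95 with GW9662, 0.89 with epoxides and 1.13 with vehicle (-0.18), and Chaf1b had a ratio of -0.17.

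Both treated arrays were set against the same vehicle array, so genes that stand low or high on both share its reading. Mcm5, Gins2, Rfc3, Pold1, Pold2, Lig1, Chaf1b and E2f1 (8 members, 18.2%) were at least 1.1-fold below vehicle on both, where 15.6% of all 15697 genes measured in both comparisons were. Dut and Ung (2 members, 4.55%) were at least 1.1-fold above it on both, against 5.49% of all genes. Both shares lie near those of all genes. Without the trend, 2 members (Cdt1 and Rfc3) were lower on both, against 8.31% of all genes, and 1 (Ung) was higher on both, against 6.51%. How far the vehicle array itself sets these patterns was not tested.

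Between epoxides and GW9662, more members were above 0 than below. This comparison leaves out the vehicle array but shares the GW9662 array with GW9662 over vehicle, so the shifts in them are not separate readings. How far the GW9662 array itself sets both was not tested. A ratio below 0 was found in 15 of 44 (34.1%), against 61.1% of all 16048 measured genes, with a median of 0.07 (quartiles -0.04 and 0.17) against -0.06 for all genes. Mcm10, Pole2, Dut and Ung were at least 1.2-fold higher with epoxides (4 members, 9.09%, against 5.33% of all genes), and Rfc2 was at least 1.2-fold lower (1 member, 2.27%, against 18.9%). None was 2-fold lower or higher, as were 0.96% and 0.206% of all genes. Among the brighter genes (from the median signal upwards) 9.93% of all genes were at least 1.2-fold lower and 3.59% higher. Quantile normalization gave a median of 0.08, cyclic loess 0.11 and removal of the trend 0.11, where 6 of 44 were below 0, against 49.2% of all genes. With the deposited table, in which the 2 treated scans change places, it was -0.07.

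Mcm10 stood at 1.74 with epoxides, 1.39 with GW9662 and 1.54 with vehicle, a ratio of 0.34 for epoxides over GW9662 (1.27-fold), with vehicle between the treated arrays. Ratios for epoxides over GW9662 were 0.44 in Dut, 0.41 in Ung, 0.32 in Pole2 and 0.25 in Tk1. That of Ung lay next to the median of 0.42 of the 30 detected probes with at least 30 bases of GT repeat. The trend in GC content and signal takes no account of such repeats. Mcm2 had 0.24, Prim2 0.24, Pola1 0.20 and Cdc6 0.20. Rfc2 (-0.30), Rrm1 (-0.20), Chaf1b (-0.17) and Gins3 (-0.13) were below 0. Without the trend the ratio of Ung was 0.43, that of Mcm10 0.24, that of Pole2 0.21 and that of Tk1 0.16. Dut came to 0.07, Rfc2 to -0.10 and Chaf1b to 0.05, so Pole2, Dut, Mcm10 and Rfc2 no longer reached 1.2-fold and Chaf1b changed sign. Pola2, at 0.16 as read, came to 0.31 and was then at least 1.2-fold higher. By role, the medians were 0.19 for nucleotide supply, 0.13 for polymerases and primase, 0.06 for the helicase, 0.03 for single-strand binding and Okazaki fragment joining, 0.06 for entry into S phase and -0.05 for chromatin assembly and histone mRNA. That of the clamp and its loader was -0.01, which was above 0 with quantile normalization (0.004), cyclic loess (0.03) and scaling on detected probes (0.01).

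The GC content of the probe moved with these ratios, as the plot against GC content shows. Over the 44 members, which share their arrays, the correlation of ratio with GC content was -0.73 between epoxides and vehicle, -0.49 between GW9662 and vehicle and -0.69 between epoxides and GW9662. Over all measured genes it was -0.48, -0.21 and -0.41 in the same order of comparisons. For epoxides over vehicle, the 14 members with probes of 30 to 38% G and C had a median of 0.12, beside 0.10 for all 4806 genes of that range, and the 4 members at 52% or more had -0.30, beside -0.34 for 1862 genes. The members thus lie close to other genes of like GC content in that comparison. For GW9662 over vehicle the same members had medians of -0.05 and -0.16, beside 0.02 and -0.10 for all genes of those ranges. With the trend removed, the correlations over members were -0.10, -0.14 and -0.02.

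**Figure D3:**
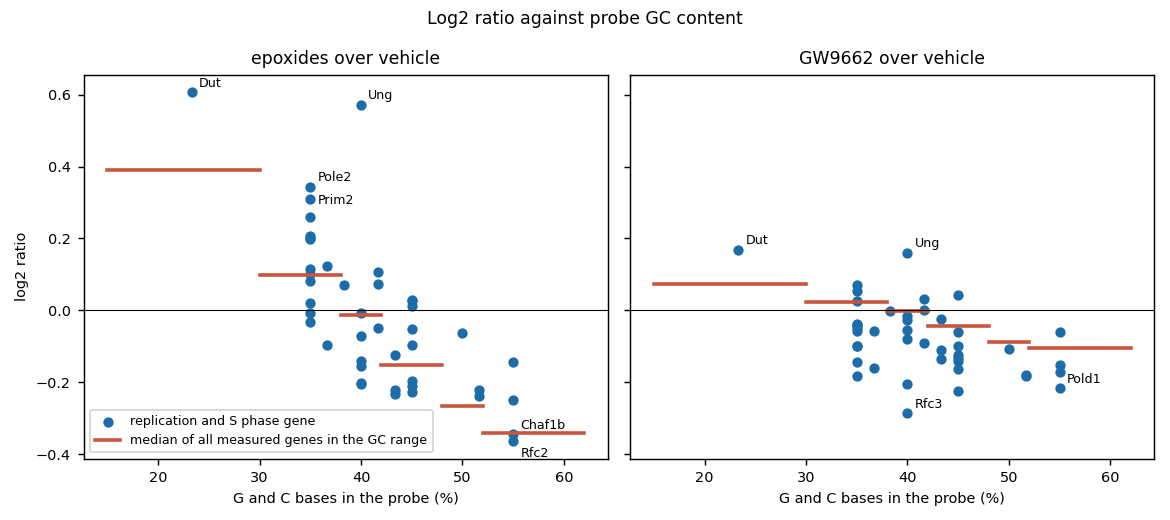
Log2 ratio of the 44 measured genes (points) against the GC content of their probe (x axis, %) for epoxides over vehicle (left) and GW9662 over vehicle (right); horizontal lines are medians of all measured genes in 6 ranges of GC content. In the left panel the points run down with the lines, from Dut at 0.61 to Rfc2 at -0.36; in the right panel most points lie below the lines.

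Genes with an E2F motif in the promoter window had a median ratio of -0.12 over 12 genes for epoxides over vehicle, beside -0.01 over the 25 genes with a promoter and no motif. For GW9662 over vehicle the medians were -0.15 (10 of 12 below 0) and -0.06 (20 of 25), where 57.8% of all genes were below 0. For epoxides over GW9662 they were both 0.05, from 0.0548 and 0.0481. Without the trend the first pair was -0.02 and 0.0003 and the second -0.12 and -0.07. Of the genes whose promoters are printed above, Pola1 had a ratio of 0.05 for GW9662 over vehicle, Gins3 had -0.03, Mcm6 -0.05, Cdc6 -0.10, Mcm5 -0.16 and Rfc3 -0.29. The motif thus stood in Rfc3, the lowest member in that comparison, and also in genes close to vehicle.

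Several probes limit what can be said of single genes. In 9 genes another probe was also well above background, and for epoxides over vehicle it went the same way in 3 and the opposite way in 6 (Ccne1, Cdc6, Mcm3, Pole, Rfc4 and Slbp). For GW9662 over vehicle it went the same way in 7 and the opposite way in Dut and Slbp, and for epoxides over GW9662 in 6, with Pole, Rfc4 and Slbp opposite. The mapped position of the probe lay on another chromosome than the gene for Mcm7 (probe on 16, gene on 5), Pcna (probe on 19, gene on 2) and Rrm2 (probe on 19, gene on 12), and it was not given for Rfc3, Pold1 and Pole2. Whether the probes of Mcm7, Pcna and Rrm2 read a near-identical copy was not tested. Ccne2 stood at -6.35 with epoxides, -7.15 with GW9662 and -6.95 with vehicle, under the dimmest spot that was well above background on each array (-5.57, -5.03 and -4.84), so no ratio of it is counted.

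Other genes of the cell cycle were read for comparison. In E2F, RB and G1 regulators (27 of 29 measured) 6 were below 0 for epoxides over vehicle with a median of 0.13, 15 for GW9662 over vehicle with a median of -0.02, and 8 for epoxides over GW9662 with a median of 0.13. The G1 cyclin Ccnd1 was not well above background on any array. The kinase inhibitor Cdkn1a stood at 3.29 with epoxides, 3.43 with GW9662 and 3.66 with vehicle, and Cdkn1b at 3.37, 3.29 and 3.25. Myc, which drives growth genes, stood at 1.97 with epoxides, 1.75 with GW9662 and 2.05 with vehicle, a ratio of -0.30 for GW9662 over vehicle. E2f4, a repressor in resting cells, had a ratio of 0.68 for epoxides over vehicle from a probe with 20% G and C, which was 0.03 without the trend.

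Other replication factors (25 of 26 measured) had medians of 0.06 for epoxides over vehicle (7 below 0), 0.001 for GW9662 over vehicle (12 below 0) and 0.07 for epoxides over GW9662 (8 below 0). The shares of all genes below 0 were 61.1%, 57.8% and 61.1% in that order. Farthest from 0 were Wdhd1, which ties polymerase alpha to the helicase (-0.58 for epoxides over vehicle), the Cdt1 inhibitor Gmnn (0.49, and 0.09 without the trend) and, for GW9662 over vehicle, the checkpoint mediator Clspn (-0.31) and Orc5 (0.27). Other genes of nucleotide synthesis (14 of 14) had medians of -0.02, -0.07 and 0.09 in the same order of comparisons, with 7, 10 and 3 below 0. Genes of replication-coupled chromatin (8 of 9) had -0.04, -0.04 and -0.01. Genes of G2 phase and mitosis had 0.03 (8 of 23 below 0), 0.05 (10 of 22) and 0.02 (10 of 22). The kinetochore protein Cenpf was at -0.89 for epoxides over vehicle (-0.61 without the trend). Its levels, -5.43 with epoxides and -4.54 with vehicle, lay near the dimmest spots well above background on those arrays (-5.57 and -4.84). With GW9662 Cenpf was not well above background. The mitotic kinase Cdk1 was at 0.62 for epoxides over vehicle from a probe with 18.3% G and C (-0.06 without the trend). For GW9662 over vehicle, the medians of the 45-gene set and of nucleotide synthesis were thus the lowest of these lists and that of G2 phase and mitosis the highest, with no test of the difference.

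**Figure D4:**
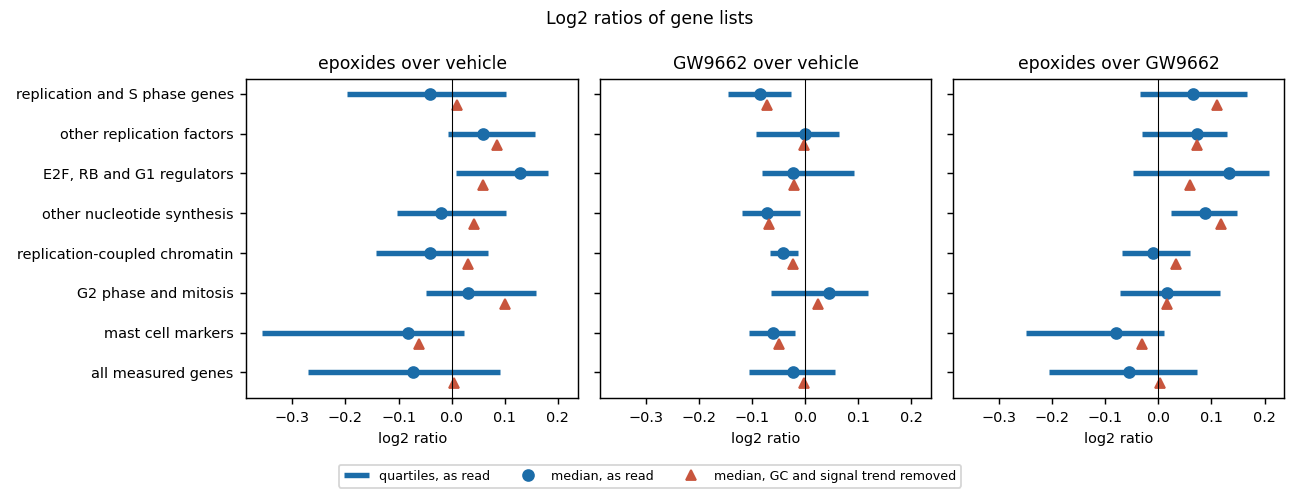
Median (circles) and quartiles (bars) of the log2 ratio in each gene list (y axis) for the 3 comparisons (x axes), with the median after removal of the trend in GC content and signal (triangles). In the middle panel the replication and S phase genes sit at -0.08 and the G2 phase and mitosis genes at 0.05, with all measured genes at -0.02.

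Markers of the labelled cell type also differed between the arrays. The summed linear level of the 11 mast cell markers, relative to the 75th percentile, was 512 with epoxides, 591 with GW9662 and 660 with vehicle. Cpa3, the brightest of them, stood at 6.93 with epoxides, 7.19 with GW9662 and 7.61 with vehicle and weighs most in these sums. Per gene, the median marker ratio for epoxides over vehicle was -0.08, beside -0.07 for all genes. Of the 11 markers 8 were below 0, where 61.1% of all genes were, and 4 were at least 1.2-fold lower, against 25.6%. These 4 were Cpa3 (-0.68), Cma1 (-0.39), Fcer1g (-0.38) and Fcer1a (-0.34). Kit had -0.05, and the 3 above 0 were Mitf (0.12), Hdc (0.10) and Ms4a2 (0.09). Markers of other cells that such a culture may hold were read as well. Neutrophil and precursor markers summed to 5.67 with epoxides, 6.60 with GW9662 and 6.07 with vehicle (5, 5 and 4 of 10 well above background), and macrophage markers to 0.945, 0.916 and 1.005 (4, 4 and 5 of 8). Mpo, an enzyme of neutrophil precursors, stood at -5.42 with epoxides, -2.43 with GW9662 and -5.48 with vehicle, where it was not well above background. The rest of its list did not share this rise. The 4 measured for GW9662 over vehicle had a median of 0.05, with Camp at 0.26, Ctsg at 0.16, Elane at -0.06 and Lcn2 at -0.25. For epoxides over vehicle their median was -0.45, with 3 of 4 below 0. Megakaryocyte and erythroid markers summed to 4.38, 4.196 and 4.79 (4 of 6), basophil markers to 3.39, 3.08 and 3.36 (2 of 2) and lymphocyte markers to 0.406, 0.875 and 0.978 (1, 2 and 2 of 5). The part of these cells in the ratios of the replication genes was not tested.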

How the data were processed

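RNA (200 ng) was labelled with Cy3 and hybridised to 3 one-colour Agilent arrays of 1 design, per the labels' protocols. Agilent Feature Extraction 11.5.1.1 read the scans, per the submitters' processing notes. The intensity columns the authors deposited (processed, mean and background signal) are linear and not scaled between arrays, per the file headers. The authors' deposited value table holds a linear ratio, which equals processed intensity over the array's 75th percentile within a tolerance of 0.001 in quotient. Its treated columns match each other's scans. Here log2 processed signal minus the log2 75th percentile of non-control spots was used, outlier spots were left out (221 with epoxides, 251 with GW9662 and 230 with vehicle, none saturated), copies of a probe were averaged and the brightest of a gene's probes was taken. Of 39429 probes, 28330 were named through RefSeq. A gene counted as measured when the majority of its spots exceeded background on both arrays compared. With 1 array per group there was no test, and calls are 1.2-fold and 2-fold. The number of arrays limits the precision.

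Alternatives were quantile normalization, normexp with an offset of 50, and cyclic loess (R 4.3.3 with limma 3.58.1), a scale set on detected probes, the value table, a mean over detected probes, all probes whether dim or not, only the brighter genes (from the median signal upwards), a middle band of 220 of the 532 rows left out, a quadratic trend in GC content and signal removed, and these last changes together. The percentile scaling and the removal of the trend were tested on simulated data with 2-fold changes, larger than the ratios of the members, and a linear trend in GC content. The other alternatives were not tested in this way. Promoters are those of RefSeq on GRCm38.p6. All 45 members could be named, as could the highest and lowest of each role, members at least 1.2-fold apart, members whose probes differ in sign, up to 3 genes per related list and comparison, and Ccnd1, Cdkn1a, Cdkn1b and Myc. The members, lists and alternatives were chosen with earlier results of these data known.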

Additional observations from a re-analysis of the deposited data

How the results depend on the processing

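The median ratio of the 44 measured members for epoxides over vehicle changed sign with 5 of the 11 alternatives: quantile normalization (0.024), cyclic loess (0.0026), a middle band of 220 rows left out (0.017), the trend removed (0.010) and both (0.048). The median of all genes was 0.008, -0.003, -0.06, 0.004 and 0.008 under these settings, beside -0.07 as read, so it moved up as well. In the deposited value table the treated scans change places. The median for epoxides over GW9662 was then -0.066 with 29 members below 0, and the ratios were -0.34 for Mcm10, 0.30 for Rfc2, -0.32 for Pole2, -0.44 for Dut and -0.41 for Ung. Its counts of members at least 1.2-fold lower and higher were 1 and 0 for epoxides over vehicle, 2 and 4 for GW9662 over vehicle, and 4 and 1 for epoxides over GW9662. The shares of all genes were 6.22% and 2.87%, 25.6% and 7.74%, and 5.33% and 18.9% in the same order.

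For epoxides over vehicle, members at least 1.2-fold lower and higher numbered 1 and 7 with quantile normalization, against 16.1% and 14.0% of all genes. They numbered 0 and 1 with the trend removed (11.3% and 8.96% of all genes). With the trend and the rows removed they numbered 0 and 1 (10.3% and 8.09%). With cyclic loess, 0 were lower (17.5% of all genes). Members below 0 numbered 14 of 30 without the rows (59.9% of all genes) and 11 of 30 with both changes (48.1%). For GW9662 over vehicle, 0 members were at least 1.2-fold lower with normexp, among the brighter genes, without the rows and with both changes. The shares of all genes were 3.99%, 0.962%, 4.53% and 2.08% in that order. Members below 0 numbered 23 of 30 without the rows, where fewer genes are measured (58.4% of all genes), and 23 of 30 with both changes (50.3%). For epoxides over GW9662, 0 members were at least 1.2-fold lower with quantile normalization, cyclic loess, the trend removed and both changes. The shares of all genes were 10.8%, 12.5%, 8.29% and 6.92% in that order. Members at least 1.2-fold higher numbered 7 with cyclic loess (8.62% of all genes), 2 with the trend removed (6.69%) and 2 with both changes (5.49%). Members below 0 numbered 9 with cyclic loess (50.5% of all genes), 6 with the trend removed (49.2%) and 5 of 30 with both changes (49.2%). Other causes were not tested.

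No paired analysis was possible because each condition has 1 array. Spot error alone is known, and ratios near the SD among copies of a probe are not resolved. Dim members such as Cdc45, Pola2, Tyms and Rfc3 lie nearest to the background.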
